A study of Mus musculus with 7 samples.

Results

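Blood and lymphatic endothelial genes were examined in the developing mouse colon: the blood vessel genes Pecam1, Cldn5, Vwf, Kdr, Flt1, Tek and Tie1, and the lymphatic genes Flt4, Prox1 and Lyve1. These 10 genes were taken by name and all 10 were measured, among 18194 genes in all, by 17 probe sets that name a single gene. Total RNA came from the colon of inbred C57BL/6 mice, for which no engineered allele or treatment is named, daily over embryonic days E13.5 to E18.5 (6 stages) and in adults aged 8 weeks. Each stage was measured on 1 Affymetrix GeneChip, so no stage had a replicate, and whether an array held 1 animal or several is not given in the sources used here. The values are log2 levels after RMA, a method that subtracts background, brings all arrays to the same distribution and condenses each probe set to a single value.

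The endothelium lines blood and lymphatic vessels. VEGF ligands act on receptor tyrosine kinases of the family that holds Flt1, Kdr and Flt4, and angiopoietins act on Tek (Tie2), with Tie1 as its partner receptor. Lymphatic vessels arise from veins once Prox1, a transcription factor, is switched on in part of the venous endothelium, and their outgrowth needs Vegfc acting on Flt4. In the gut wall, blood capillaries take up water-soluble nutrients and lymphatic vessels carry fluid and fat.

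Promoter windows of 4 receptors are printed because these related receptors, Kdr with Flt1 and Tek with Tie1, are compared with each other further on. The windows come from RefSeq on GRCm38.p6 and run 5′ to 3′ over 250 bases before and 50 bases after the annotated start. Capitals mark GGAA on either strand (TTCC on the printed strand), the core bound by Ets family factors, which control many endothelial genes. Overlapping matches were each counted.
Kdr (chr5:75978406-75978705, minus strand): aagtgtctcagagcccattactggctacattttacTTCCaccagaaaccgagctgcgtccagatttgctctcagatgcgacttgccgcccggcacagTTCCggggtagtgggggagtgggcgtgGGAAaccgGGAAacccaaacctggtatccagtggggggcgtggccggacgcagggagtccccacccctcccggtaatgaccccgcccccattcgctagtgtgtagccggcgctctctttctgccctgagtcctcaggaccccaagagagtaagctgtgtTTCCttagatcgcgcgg
Flt1 (chr5:147725962-147726261, minus strand): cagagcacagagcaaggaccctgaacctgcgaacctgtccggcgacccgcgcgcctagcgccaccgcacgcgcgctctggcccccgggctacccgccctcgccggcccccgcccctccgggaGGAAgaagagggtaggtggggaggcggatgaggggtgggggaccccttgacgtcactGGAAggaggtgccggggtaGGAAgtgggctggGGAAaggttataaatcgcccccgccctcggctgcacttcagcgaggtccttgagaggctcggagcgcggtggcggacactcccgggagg
Tek (chr4:94739039-94739338, plus strand): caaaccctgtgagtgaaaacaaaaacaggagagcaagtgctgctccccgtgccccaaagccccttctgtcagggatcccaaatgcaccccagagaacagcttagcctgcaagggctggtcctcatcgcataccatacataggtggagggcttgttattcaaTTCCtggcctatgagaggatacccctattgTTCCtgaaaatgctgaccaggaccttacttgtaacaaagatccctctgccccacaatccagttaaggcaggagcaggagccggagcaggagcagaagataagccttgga
Tie1 (chr4:118489800-118490099, minus strand): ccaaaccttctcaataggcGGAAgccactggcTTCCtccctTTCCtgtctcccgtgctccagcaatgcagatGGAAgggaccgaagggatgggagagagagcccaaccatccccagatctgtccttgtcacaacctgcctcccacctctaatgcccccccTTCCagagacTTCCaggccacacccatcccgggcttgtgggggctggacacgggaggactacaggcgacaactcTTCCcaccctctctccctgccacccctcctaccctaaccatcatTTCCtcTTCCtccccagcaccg
The window of Tie1 held 9 such cores, and 1.59% of the 32851 windows in the table held as many or more. The window of Kdr held 5 cores (28.6% of windows held at least as many), that of Flt1 held 4 (46.3%) and that of Tek held 2 (84.6%). A match in so short a word is common, with 1 or more cores in 96.0% of windows, and is a description of the sequence only. RefSeq windows were matched for 7 of the 10 genes (Kdr, Flt1, Tek, Tie1, Cldn5, Flt4 and Prox1, the last with a pair of windows) and not for Pecam1, Vwf and Lyve1. No GGAA core lay in the window of Cldn5.

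Most of the endothelial genes kept a level within a narrow band during embryonic life, and only Lyve1 (before birth) and Vwf (in the adult) met the limits set. In limma, every gene was given a straight line over the 6 embryonic days plus a separate adult level. The scatter about that line had 4 residual degrees of freedom, and the eBayes step of limma drew it toward the scatter of all genes. This moderated scatter served as the error for the limma p-values and intervals. Along the embryonic line Lyve1 rose, none fell and 9 did not pass at an adjusted p under 0.05, whereas 9.12% of all genes rose and 10.4% fell. In the adult, Vwf was higher than the level fitted at E18.5, none was lower and 9 did not pass at an adjusted p under 0.05 and a difference of at least 1 on the log2 scale. Of all genes, 4.23% were higher and 3.26% lower by this rule, so the counts for the 10 genes are near those of genes in general. At an unadjusted p under 0.05 in limma, 3 of the 10 slopes and 5 of the 10 adult differences passed. Of all 18194 genes, 5698 slopes and 5632 adult differences did so. These totals also stand beside the counts at an unadjusted p given for the gene lists further on. The median slope of the 10 genes was 0.0197 per day, against 0.0009 over all genes, and their median adult difference was −0.0586, against 0.0334. In bulk tissue, fewer endothelial cells and less RNA per endothelial cell cannot be told apart.

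**Figure D1:**
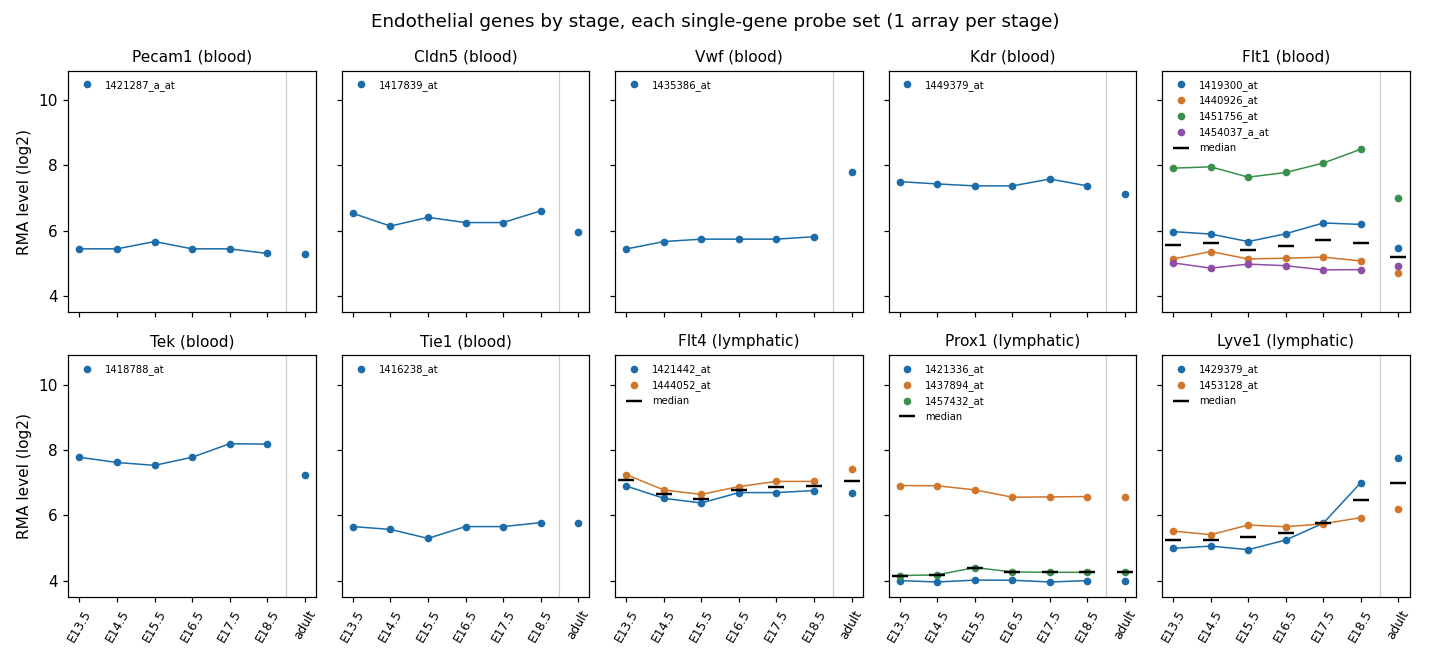
RMA log2 level of each single-gene probe set (coloured points, joined over the embryonic days) at the 7 stages, with 1 array per stage; black dashes mark the median where a gene has several. Vwf stands at 7.79 in the adult, above its 6 embryonic values of 5.44 to 5.82, and the Lyve1 probe sets part after E17.5.

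Pecam1, an adhesion molecule of endothelial junctions that platelets and leukocytes also carry, was measured by 1 probe set. Its level was 5.44, 5.44, 5.67, 5.44, 5.44 and 5.30 from E13.5 to E18.5 and 5.30 in the adult. These values were dim, below the median probe set on every array (6.08 to 6.15 over the arrays). The embryonic line changed by −0.13 over 5 days (95% interval −0.46 to 0.19, adjusted p = 0.597), and the adult differed from it by −0.09 (95% interval −0.43 to 0.25, adjusted p = 0.744). Exact ties such as the 5.44 of 4 arrays can arise in the probe summary of RMA, and 43.7% of all single-gene probe sets and 12 of the 17 of these genes had at least 2 arrays at the same value to 7 decimals.

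Cldn5, a claudin that seals the tight junctions of endothelial cells, was at 6.53, 6.14, 6.41, 6.25, 6.25 and 6.61 from E13.5 to E18.5 and at 5.97 in the adult. The adult value lay below all embryonic ones, by −0.43 from the fitted level (95% interval −0.93 to 0.06, adjusted p = 0.221), and did not pass. Over the embryonic days Cldn5 had its highest levels at the first and last stage, with a change along the line of 0.077 over 5 days (95% interval −0.40 to 0.56, adjusted p = 0.858).

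Vwf, which encodes von Willebrand factor, the protein that endothelial cells store for binding platelets and factor VIII, had the largest adult difference of the 10 genes. It was at 5.44, 5.67, 5.74, 5.74, 5.74 and 5.82 from E13.5 to E18.5 and at 7.79 in the adult. The adult value stood clear of all embryonic values, at 3.85-fold the level fitted at E18.5 (difference 1.95, standard error 0.11, 95% interval 1.68 to 2.21, adjusted p = 0.0001 in limma). On the gene level, Vwf alone of the 10 genes had a step of 2-fold or more between neighbouring stages. Single probe sets of other genes also had such steps. The Lyve1 probe set 1429379_at went from 5.76 at E17.5 to 7.0 at E18.5, and the Flt1 probe set 1451756_at from 8.50 at E18.5 to 7.0 in the adult. Adult over E18.5, such a step upward was found for 788 of all 18194 genes. The embryonic values of Vwf were dim and its slope of 0.06 per day did not pass (adjusted p = 0.109, 95% interval of the 5-day change 0.041 to 0.56).

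Megakaryocytes and platelets also carry von Willebrand factor, and genes of these and of other cell types differed on the adult array. Their part in the Vwf difference was not tested. Of 8 measured platelet and megakaryocyte genes, 1 was higher in the adult, Gp1bb, a subunit of the platelet receptor for von Willebrand factor (7.18 in the adult, against 5.91 fitted at E18.5, difference 1.27, adjusted p = 0.000356). Pf4, a chemokine of platelet granules, was at 8.46 in the adult, above all its embryonic values and against 7.15 fitted, and did not pass (difference 1.32, adjusted p = 0.251). The platelet integrin Itga2b was at 5.91 in the adult, against 6.12 fitted, and Gp9 at 6.87, against 6.82. The median over the 8 genes was 6.37 in the adult and 5.81 to 6.27 in the embryonic colon. Of 4 measured adipocyte genes 2 were higher, with Adipoq, which encodes adiponectin, at 7.45 in the adult, against 4.39 fitted (adjusted p = 3.69e-05), and a median over the 4 of 6.72 in the adult and 5.0 to 5.18 in the embryonic colon. The adult array also differed in the Gapdh control probe sets, whose 5′ signal, which drops as RNA shortens, lay below the 3′ signal by a log2 difference of −2.41 in the adult, against −1.59 to −1.29 in the embryo. For the Actb control it was −2.66 in the adult, against −2.14 to −1.96 in the embryo. Every adult difference given here, upward or downward, rests on this array, and the part of RNA length in them was not tested.

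On the gene level, the VEGF receptor genes of blood vessels varied little before birth and lay lower in the adult, without passing the test. The brightest probe set of Flt1, given further on, spanned 0.86 over the embryonic days. Kdr, the main signalling receptor for Vegfa, was at 7.50, 7.43, 7.37, 7.37, 7.58 and 7.37 from E13.5 to E18.5 and at 7.12 in the adult. Its embryonic values spanned only 0.21, the 5-day change was −0.028 (95% interval −0.32 to 0.26, adjusted p = 0.919), and the adult difference was −0.30 (95% interval −0.60 to −0.0056, adjusted p = 0.154).

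Flt1, which binds Vegfa tightly and as a soluble form keeps it from Kdr, was measured by 4 probe sets that disagreed in the adult. The median over them was 5.55, 5.63, 5.40, 5.53, 5.71 and 5.63 from E13.5 to E18.5 and 5.20 in the adult, a difference of −0.43 (95% interval −0.75 to −0.11, adjusted p = 0.073). The brightest probe set, 1451756_at, was at 7.92, 7.96, 7.64, 7.78, 8.07 and 8.50 over the embryonic days and at 7.0 in the adult. In the fit over all 34958 single-gene probe sets it was 0.428-fold in the adult (difference −1.22, standard error 0.26, adjusted p = 0.0224), where 3.94% of probe sets were higher and 4.21% lower. The probe sets 1419300_at (5.48 in the adult, against 5.67 to 6.24 in the embryo) and 1440926_at (4.71 in the adult, against 5.07 to 5.36) also lay below their embryonic values but did not pass (adjusted p = 0.0675 and adjusted p = 0.0825). The fourth, 1454037_a_at, was at 4.93 in the adult and 4.80 to 5.01 in the embryonic colon, so the direction in the adult was shared by 3 of the 4 probe sets.

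Tek, the angiopoietin receptor, lay lower in the adult than on any embryonic day. It was at 7.78, 7.62, 7.53, 7.78, 8.19 and 8.18 from E13.5 to E18.5, with an adult level of 7.23. The last 2 embryonic days thus stood above the 4 before them and the adult below all 6. The adult difference was −0.90 (0.535-fold, standard error 0.21, 95% interval −1.40 to −0.40) with an adjusted p of 0.0271 in limma, short of the required 2-fold. Leaving out single arrays raised that adjusted p to 0.0602 (E14.5), 0.0779 (E17.5) or 0.106 (E18.5). The slope of 0.11 per day did not pass (standard error 0.04, adjusted p = 0.105). Without the E13.5 array it passed, at 0.18 per day (adjusted p = 0.05 after rounding).

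Tie1, its partner, was at 5.66, 5.57, 5.29, 5.66, 5.66 and 5.78 from E13.5 to E18.5 and at 5.78 in the adult, below the median probe set on every array. Neither its 5-day change of 0.17 (95% interval −0.24 to 0.59, adjusted p = 0.586) nor its adult difference of 0.09 (95% interval −0.34 to 0.52, adjusted p = 0.812) passed. The change of Tek relative to Tie1, the slope of their log2 difference over the 6 embryonic arrays, was 0.079 per day (exact permutation p = 0.0778, two-sided over 720 orders, adjusted p = 0.156 over 4 pairs). For Flt1 relative to Kdr it was 0.0281 (exact permutation p = 0.206, adjusted p = 0.274) and for Flt4 relative to Kdr 0.0078 (exact permutation p = 0.864, adjusted p = 0.864), and none of these pairs was shown to differ in slope.

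**Figure D2:**
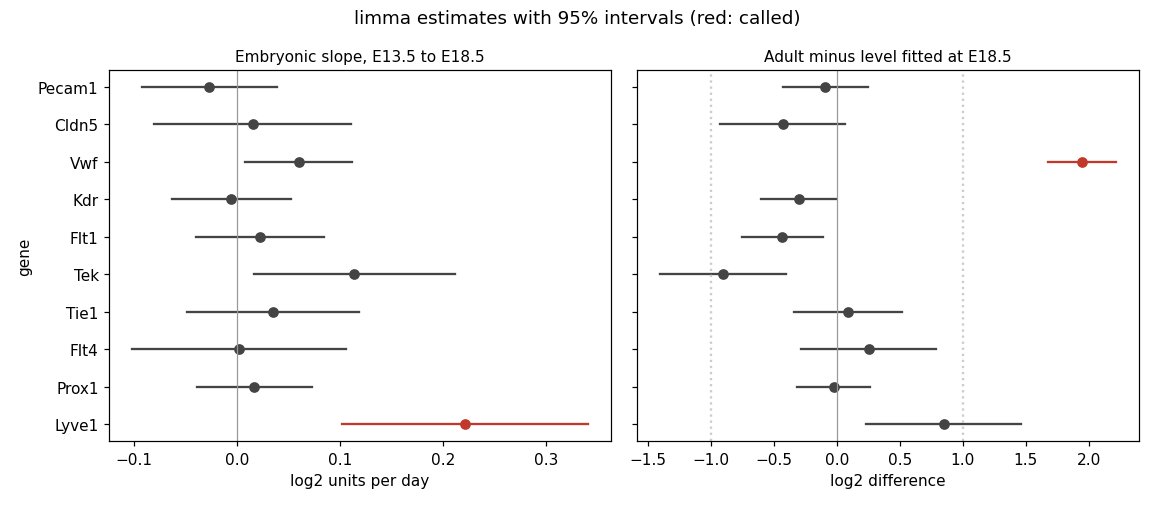
Embryonic slope per day (left) and adult level minus the level fitted at E18.5 (right) of the 10 genes on the log2 scale; points are limma estimates, lines 95% intervals, dotted lines a difference of 1, and red marks genes that passed. Lyve1 passed for the slope (0.22 per day) and Vwf in the adult (1.95).

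Lyve1, a hyaluronan receptor of lymphatic endothelium that some tissue macrophages also carry, was the gene that rose before birth. Its median over both probe sets was 5.25, 5.23, 5.33, 5.45, 5.75 and 6.47 from E13.5 to E18.5 and 6.98 in the adult. The E18.5 value stood above the other embryonic ones, with a step of 0.71 over the day before, and the adult value above all. The slope was 0.22 per day (standard error 0.05, 95% interval of the 5-day change 0.51 to 1.70, adjusted p = 0.0244 in limma), and the call rested on single arrays, since it was lost without E14.5 (adjusted p = 0.083), without E17.5 (adjusted p = 0.059) and without E18.5 (slope 0.12, adjusted p = 0.0809). The adult difference was 0.85 (95% interval 0.23 to 1.47, adjusted p = 0.0669) and did not pass. It did without E18.5 (1.22, adjusted p = 0.00798).

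The probe sets of Lyve1 differed in size of change. The level of 1429379_at was 4.99, 5.06, 4.95, 5.24, 5.76 and 7.0 over the embryonic days and 7.76 in the adult (slope 0.36, adjusted p = 0.0412 over all probe sets). That of 1453128_at was 5.52, 5.41, 5.70, 5.65, 5.74 and 5.93 and 6.20 in the adult (slope 0.086, adjusted p = 0.0609). Of all single-gene probe sets, 7.24% rose and 9.55% fell along the embryonic line. Both had their highest embryonic value at E18.5 and lay higher still in the adult, and the platform annotation gives both the same source sequence, so they share a target.

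Neither Prox1, the transcription factor of lymphatic identity, nor Flt4 passed on the gene level. The median of Prox1 was 4.16, 4.18, 4.4, 4.27, 4.25 and 4.25 from E13.5 to E18.5 and 4.27 in the adult, set by a dim probe set. Of its 3 probe sets, 1421336_at (3.96 to 4.02 over all arrays) and 1457432_at (4.16 to 4.4) were dim, and only 1437894_at lay above the median probe set on every array. That one was at 6.91, 6.91, 6.78, 6.56, 6.56 and 6.58 from E13.5 to E18.5 and at 6.57 in the adult. It fell along the embryonic line (slope −0.084 per day, standard error 0.02, adjusted p = 0.0491 over all probe sets), so that the direction for Prox1 turned with the probe set used. The slope of Lyve1 relative to Prox1 was 0.20 per day (exact permutation p = 0.0361, adjusted p = 0.144) with the medians. With the brightest probe set of each gene it was 0.44 (adjusted p = 0.0111).

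Flt4, the receptor for Vegfc, was at 7.07, 6.65, 6.51, 6.79, 6.87 and 6.90 from E13.5 to E18.5 and at 7.06 in the adult. It had its highest embryonic level at E13.5 and its lowest at E15.5, with a 5-day change of 0.011 (95% interval −0.51 to 0.53, adjusted p = 0.983) and an adult difference of 0.25 (95% interval −0.28 to 0.79, adjusted p = 0.531). Both its probe sets had this course in the embryo, but in the adult 1444052_at was at 7.42, above its embryonic values of 6.64 to 7.25, and 1421442_at at 6.70, within its 6.38 to 6.90.

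Among 8 other measured lymphatic genes no slope passed and no adult difference passed both limits (2 slopes and 3 adult differences did at an unadjusted p under 0.05 in limma). Mmrn1, a multimerin of lymphatic endothelium, was at 5.59 in the adult and 4.58 to 4.68 in the embryonic colon (difference 0.98, adjusted p = 0.00075), and Reln, which encodes reelin, was at 6.31 in the adult and 5.15 to 5.47 in the embryonic colon (difference 0.88, adjusted p = 0.00448), both just short of 2-fold. Pdpn, which fibroblasts also express, was at 10.30 in the adult, against 10.13 fitted. The median over the 8 genes was 5.49 in the adult and 4.89 to 5.20 in the embryonic colon.

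Macrophage genes differed in their course over the late arrays, and their part in the rise of Lyve1 was not tested. Csf1r, the macrophage growth factor receptor, had levels of 6.01, 7.63 and 8.60 at E13.5, E18.5 and adulthood (slope 0.27, adjusted p = 0.0663, adult difference 1.54, adjusted p = 0.048). Mrc1, a mannose receptor of tissue macrophages, was at 7.98, 8.56 and 8.54 at these stages, and the scavenger receptor Cd163 at 4.09, 4.12 and 6.78 (adult difference 2.64, adjusted p = 1.53e-05). Of 12 measured macrophage genes none rose or fell along the embryonic line (2 passed at an unadjusted p under 0.05 in limma), and Csf1r, C1qa and Cd163 were higher in the adult. Their median was 6.52 in the adult and 5.40 to 5.72 in the embryonic colon (5.72 at E17.5 and 5.64 at E18.5). From E17.5 to E18.5, Csf1r went from 6.34 to 7.63, C1qc from 5.86 to 6.61 and C1qb from 9.61 to 9.94. Mrc1 went from 8.30 to 8.56, Aif1 from 5.44 to 5.70 and Adgre1 from 5.35 to 5.37. Over the same day Timd4 went from 5.77 to 5.37, Cx3cr1 from 5.60 to 5.36 and Cd68 from 6.04 to 5.90. Fcgr1 went from 5.67 to 5.58 and Cd163 from 4.14 to 4.12, and C1qa stayed at 5.27. RMA values have no true zero, so no marker can be called absent.

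**Figure D3:**
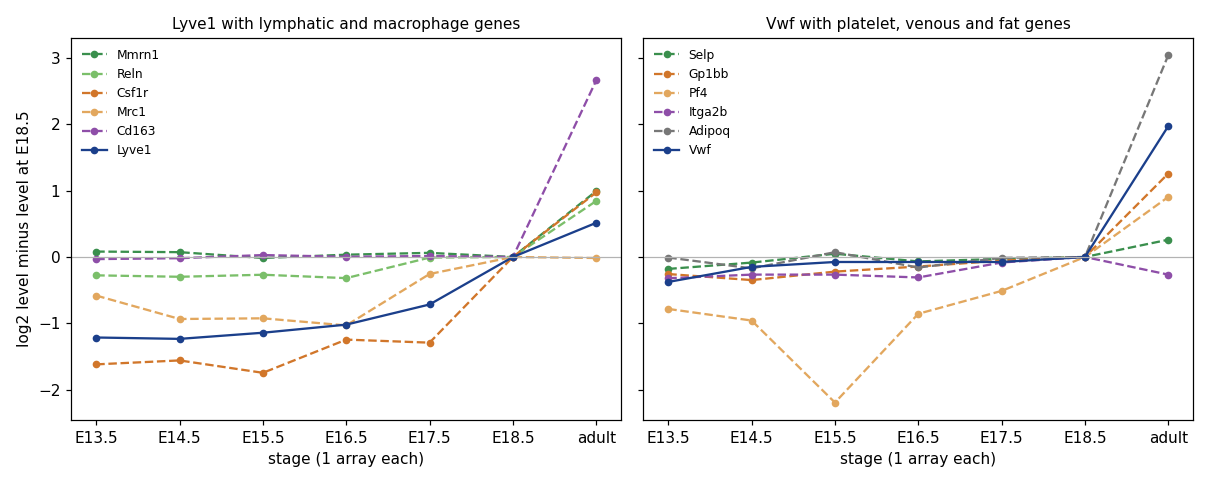
Log2 level minus the level at E18.5 over the 7 stages, with 1 array each, for Lyve1 with lymphatic (Mmrn1, Reln) and macrophage genes (left) and for Vwf with platelet, venous and fat genes (right). Lyve1 (solid) was 0.71 higher at E18.5 than the day before and higher by another 0.52 in the adult, and adult Vwf (solid) stood 1.97 above its E18.5 value.

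Of 14 further pan-endothelial genes, 1 rose along the embryonic line, none fell and 13 did not pass. It was Eng, a co-receptor for TGF-beta ligands (E13.5, E18.5 and adult levels of 5.61, 6.19 and 5.98, slope 0.11, adjusted p = 0.0173). None passed both limits in the adult (6 at an unadjusted p under 0.05 in limma), although Cd93, a lectin-like receptor, was at 5.5 in the adult, against 6.46 fitted (adjusted p = 0.00198), and the adhesion molecule Icam2 at 6.61, against 7.48 (adjusted p = 0.0484). Cdh5, the cadherin that defines endothelial junctions, was dim, at 5.24 in the adult and 5.33 to 5.57 in the embryonic colon. The median slope of the list was 0.0353 per day and its median adult difference −0.18.

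**Figure D4:**
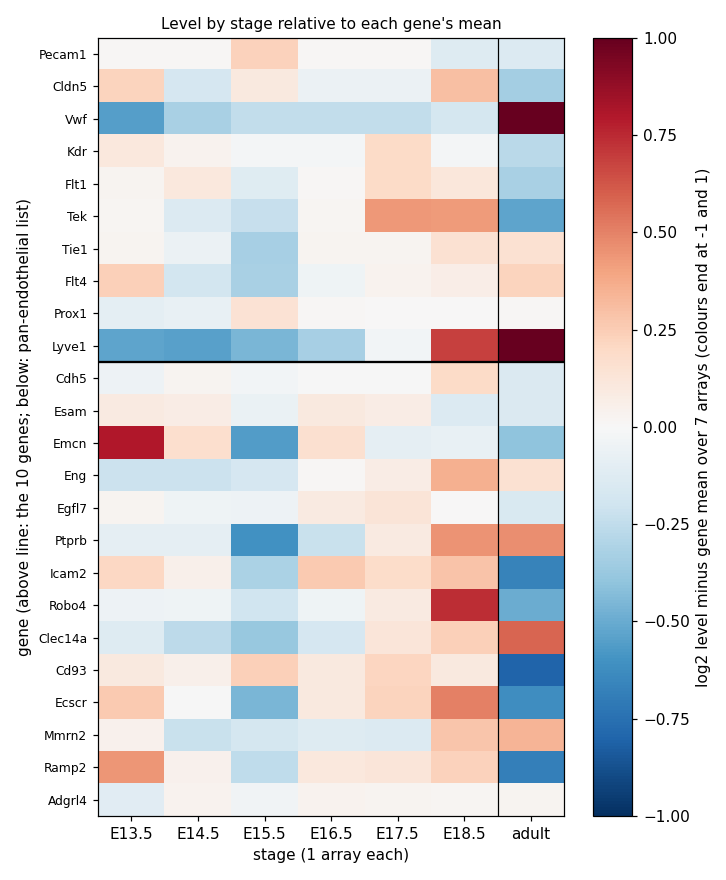
Log2 level minus the gene's mean over the 7 arrays (colour, ending at −1 and 1) by stage for the 10 genes (above the line) and 14 pan-endothelial genes (below it). Among the genes highest in the adult are Vwf, Lyve1, Tie1, Clec14a, Ptprb and Mmrn2. Among those lowest there are Tek, Cd93, Icam2, Robo4, Ecscr and Ramp2. Most genes stay near their mean in the embryonic colon.

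Of 9 VEGF ligands and their partners, 1 rose, 2 fell and 6 did not pass. Vegfb rose (levels of 6.77, 7.60 and 7.27 at E13.5, E18.5 and adulthood, slope 0.14, adjusted p = 0.024). Nrp1, a co-receptor of Kdr that neurons and mesenchyme also express, fell (9.55, 8.59 and 7.61, slope −0.20, adjusted p = 0.00372), as did Adamts3, a protease that activates Vegfc (slope −0.10, adjusted p = 0.0418). Vegfa lay between 7.05 and 7.26 on all 7 arrays. Vegfd was at 5.60 in the adult, above all its embryonic values and against 5.03 fitted (difference 0.57). None was 2-fold different in the adult (3 passed at an unadjusted p under 0.05 in limma), and Nrp1 was lower by 0.91 (adjusted p = 0.00432). Of 4 genes for angiopoietins and the Tie pathway, Angpt1, the activating ligand of Tek, fell (5.45, 4.44 and 4.49, slope −0.20, adjusted p = 0.00345) and Svep1, which is needed for lymphatic vessels, rose (5.95, 6.86 and 6.79, slope 0.17, adjusted p = 0.0163). Angpt2 was at 5.32 to 5.54 on all arrays, and no adult difference passed (0 at an unadjusted p under 0.05 in limma).

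Endothelial transcription factors moved in both directions, as did genes in general, of which 9.12% rose and 10.4% fell along the embryonic line. Of 15, 2 rose, 3 fell and 10 did not pass, and 2 were lower in the adult. Klf4, which is also a gene of differentiated gut epithelium, rose (7.70, 10.77 and 11.73 at E13.5, E18.5 and adulthood, slope 0.68, adjusted p = 0.00122), as did Hhex (slope 0.15, adjusted p = 0.0417). Ets1 fell (6.16, 5.34 and 5.21, slope −0.15, adjusted p = 0.008), as did Fli1 (6.57, 6.12 and 4.97, slope −0.11, adjusted p = 0.0299) and the venous factor Nr2f2 (slope −0.12, adjusted p = 0.0417). In the adult, Sox7 was at 5.11, against 6.41 fitted (difference −1.30, adjusted p = 0.000408), and Fli1 at 4.97, against 5.99 (difference −1.02, adjusted p = 0.00293).

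Of 11 arterial genes, Notch4 (slope 0.21, adjusted p = 0.0302) and Notch1 (slope 0.083, adjusted p = 0.0243) rose, and Hey2, a target of Notch, was lower in the adult (5.81, against 7.88 fitted, difference −2.07, adjusted p = 0.00501). Of 10 venous and capillary genes, Rgcc (slope 0.18, adjusted p = 0.0047) and Plvap, which forms the diaphragms of fenestrated capillaries (8.03, 8.70 and 9.21 at E13.5, E18.5 and adulthood, slope 0.19, adjusted p = 0.0376), rose. The apelin receptor gene Aplnr was lower in the adult (8.21, against 10.04 fitted, difference −1.83, adjusted p = 9.68e-05). Of 9 genes of haemostasis and vessel tone, Thbd rose (slope 0.32, adjusted p = 0.016), Plat fell (slope −0.10, adjusted p = 0.0289) and Tfpi, an inhibitor of the tissue factor pathway, was lower in the adult (6.21, against 7.61 fitted, adjusted p = 0.00577). Of 10 pericyte and mural genes, Pdgfrb fell (slope −0.15, adjusted p = 0.0322) and was lower in the adult (7.12, against 8.17 fitted, adjusted p = 0.0112), as was Notch3 (6.81, against 8.66 fitted, adjusted p = 0.000306). Many of these genes are also expressed outside vessels.

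Over all 90 measured companion genes, 10 rose, 8 fell, none was 2-fold higher in the adult and 7 were lower, beside 9.12%, 10.4%, 4.23% and 3.26% of all genes. The count that rose was 4 without E14.5, without E17.5 or without E18.5, and 5 without E16.5. The count that fell was 3 or 4 without any single embryonic array other than E15.5. Of 75 measured genes of other cell types, 25 rose and 8 fell, and 10 were higher and 3 lower in the adult. All 6 epithelial and 5 of 6 smooth muscle genes rose along the embryonic line, as did 8 of 10 enteroendocrine, 2 of 5 enteric neuron and 2 of 6 liver genes, while 5 of 7 mesothelial and 3 of 6 red cell genes fell. In the adult 2 of 4 adipocyte, 2 of 5 pancreas acinar, 1 epithelial and 1 enteroendocrine gene were higher and 3 enteric neuron genes lower, and 1 mesothelial and 1 pancreas acinar gene rose before birth. Cdx2, a defining factor of intestinal epithelium, was present, at 9.35 in the adult and 8.58 to 9.07 in the embryonic colon. The embryonic red cell globin Hbb-y had levels of 12.61, 4.72 and 4.58 at E13.5, E18.5 and adulthood.

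In the study, a Spearman rho beyond 0.9 with stage order, in either direction, was the first of the criteria for development-related genes, and a later choice by size of variation was not applied here. Vwf and Lyve1 were past this rho over the 7 stages (rho = 0.964 for both), given without a test. Over all genes 6.5% had a correlation above 0.9 and 7.73% one below −0.9. Tek, at rho = 0.018, and Flt1, at rho = −0.071, had almost no order over the stages, since both were high at E17.5 and E18.5 and low in the adult. The adult value lay above all 6 embryonic values for Vwf, Tie1 and Lyve1 (33.4% of all genes) and below them for Pecam1, Cldn5, Kdr, Flt1 and Tek (24.2% of all genes). For Tie1 and Pecam1 the gap to the E18.5 value was only 0.003 and −0.003.

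Several endothelial genes had their lowest embryonic value on the E15.5 array, a pattern noticed after the values were seen and given without a test. Of the 10 genes, Flt1, Tek, Tie1 and Flt4 had their lowest embryonic value at E15.5 alone and Kdr tied for it with E16.5 and E18.5, so the 5 VEGF and Tie receptor genes were at their embryonic minimum there on the gene level. For Flt1 this held for 1419300_at and 1451756_at only, since 1440926_at was lowest at E18.5 (5.07) and 1454037_a_at at E17.5 (4.80). Lyve1 was lowest at E14.5. Of all genes, 20.2% had their lowest embryonic value at E15.5 alone and 20.5% with ties. The E15.5 level minus the mean of E14.5 and E16.5 was −0.32 for Tie1, −0.21 for Flt4, −0.18 for Flt1 and −0.17 for Tek, whereas Pecam1 and Cldn5 were higher there, by 0.22 and 0.21. Of 14 pan-endothelial genes 8 had their minimum at E15.5 and 11 lay below both neighbouring stages (31.4% of all genes did), with Emcn, a sialomucin of capillaries and veins, at 6.90, 6.18 and 6.90 from E14.5 to E16.5. The minimum at E15.5 was also found for 6 of 11 arterial genes, but for only 1 of 10 venous and capillary genes, 3 of 15 transcription factors, 2 of 9 VEGF ligands and partners, 2 of 9 haemostasis and tone genes, 2 of 8 other lymphatic genes, 0 of 4 angiopoietin and Tie pathway genes and 0 of 10 pericyte and mural genes. Among genes of other cell types, 4 of 12 macrophage, 2 of 8 platelet, 2 of 6 liver and 2 of 10 enteroendocrine genes had it. So did 1 of 5 pancreas acinar, 1 of 7 mesothelial, 1 of 6 epithelial and 1 of 6 smooth muscle genes. It was found for 0 of 6 red cell, 0 of 4 adipocyte and 0 of 5 enteric neuron genes. With 1 array per stage, a feature of that array and one of the stage cannot be told apart.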

How the data were processed

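Colon RNA was measured on 7 Affymetrix GeneChips, 1 per stage. The values the authors deposited are log2 levels from RMA. Affy 1.22.1 and R 2.9.2 appear in the submitters' processing notes. Because RMA equalizes the arrays, a change common to most genes cannot be seen. Platform annotation named the probe sets, with symbols brought up to date through gene identifiers (18033 of 18195 found in the GRCm38.p6 table). Probe sets for several genes (932) or for none (9211) were dropped, and a gene's level is the median of its remaining probe sets.

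With limma 3.58.1 in R 4.3.3, all 18194 genes, and likewise all 34958 probe sets, were fitted with a slope per embryonic day and an adult term against the level fitted at E18.5, with Benjamini-Hochberg adjustment over all features. For the adult, which had a single array, the spread of the embryonic arrays was used. The fit was tested on simulated data. The slopes given to changed genes there were larger in size than those of all 10 genes except Lyve1, so smaller slopes were not covered. Pairs of genes were compared by the slope of their log2 difference with exact permutation tests over 720 orders, which allow no p below 0.00278. Low values were not filtered. The number of arrays limits precision, and p-values measure only the spread of these arrays around a line, which limma moderated over all features. The 10 genes, the 20 gene lists (174 genes, 165 measured) and the alternatives were chosen with earlier results of these data known. The rule for naming took all 10 genes with their probe sets, from each vascular list up to 4 called genes by size of slope and up to 4 by size of adult difference, the 5 genes most like the profile of each vessel type, and defining markers of other cell types. Clone symbols were passed over, and other named genes were chosen after their values were seen. Alternatives were other summaries of probe sets, a filter on dim genes, other scalings, another variance model, other trends and leaving out each embryonic array. Software comprised Python 3.11.15 with numpy 2.4.6, pandas 2.3.3 and scipy 1.17.1, and matplotlib 3.10.9 for plots.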

Additional observations from a re-analysis of the deposited data

How the results depend on the processing

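The adult difference of Vwf passed under every alternative run (1.91 to 2.28). Leaving out each embryonic array gave 0 to 2 rising and 0 falling of the 10 genes, 1 to 2 higher and 0 lower in the adult, and 2 to 4 past the correlation cutoff. Of all genes, 4.46% to 11.4% rose and 4.7% to 13.9% fell in these runs. In the adult 3.66% to 4.34% were higher and 2.81% to 3.39% lower, and 14.6% to 21.5% passed the correlation cutoff. With the brightest probe set 1 fell (Prox1, −0.084), 1 was lower in the adult (Flt1, −1.22) and 1 passed the correlation cutoff, as did 1 with median centring. Of all genes, 10.6% fell, 5.52% were lower and 15.2% passed the cutoff with the brightest probe set, and 15.3% passed it with median centring. With an adjusted p alone, chosen after seeing the data, 1 was lower (Tek), beside 1528 of all 18194 genes. Centring on the pan-endothelial median moves the median of all genes in the adult by 0.31 relative to E13.5, and 2 were then higher in the adult (Lyve1, 1.18). Of all genes 8.52% were then higher.

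Without an embryonic array, 4 to 13 vascular genes rose, 3 to 11 fell, 0 to 1 were higher and 7 to 8 lower in the adult. Pan-endothelial centring gave 6 rising, 4 higher and 4 lower (6.44%, 8.52% and 1.84% of all genes), and the brightest probe set 3 higher (5.15% of all genes). Of genes of other cell types, 13 to 26 rose, 4 to 10 fell, 8 to 13 were higher and 2 to 7 lower without an array (25, 8, 10 and 3 with all arrays). Pan-endothelial centring gave 20 higher. The brightest probe set and the mean of probe sets gave 5 lower each, and 6 were lower against E17.5 and E18.5 averaged.

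Directions of values that did not pass turned as follows, and the cause was not tested. With pan-endothelial centring, slopes were −0.026 for Cldn5, −0.019 for Flt1, −0.0066 for Tie1, −0.039 for Flt4 and −0.025 for Prox1, and adult differences 0.24 for Pecam1, 0.027 for Kdr and 0.30 for Prox1. Over the order of all 7 arrays, slopes were −0.032 for Cldn5 and −0.026 for Flt1. With the brightest probe set, the slope of Flt4 was −0.0002 and the adult difference of Prox1 0.063. With the mean of probe sets Prox1 had a slope of −0.022 and an adult difference of 0.016. Median centring gave Flt4 −0.012, and E17.5 and E18.5 averaged gave Prox1 an adult difference of 0.013. Without an embryonic array, slopes ranged from −0.046 to 0.077 for Cldn5, −0.024 to 0.010 for Kdr and −0.027 to 0.086 for Flt4, and that of Flt4 minus Kdr from −0.037 to 0.077. The slope of Lyve1 minus Prox1 was 0.44 with the brightest probe set (exact permutation, adjusted p = 0.0111) and 0.24 with the mean of probe sets (exact permutation, adjusted p = 0.0222).

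Of all genes, 1660 rose and 1884 fell (1495 and 2368 with median centring, 1171 and 2917 with pan-endothelial centring), and 769 were higher and 593 lower in the adult (1550 and 335 with pan-endothelial centring). Over all alternatives 4.46% to 12.0% of genes rose. Prox1 has no value where the dimmest 25% of genes are left out. No paired analysis was possible because each stage has 1 array and the labels give no replicate numbers. Signal is a limit for Pecam1, Tie1 and the medians of Flt1 and Prox1, below the median probe set on all arrays, and for Vwf in the embryo and Lyve1 up to E17.5.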

Other observations

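The genes with the course most like the median centred profile of the 7 blood vessel genes over the 7 arrays, among 4276 genes with a range of at least 1 on the log2 scale, were Ikzf4 (r = 0.984), Prss35 (0.98), the endothelial gene Ecscr (0.97), P3h3 (0.969) and Dab2 (0.968). For the 3 lymphatic genes they were Ndufs7 (r = 0.998), Gpx1 (0.995), Idh3b (0.994), Dap (0.993) and Tbrg1 (0.993). These correlations are descriptions over 7 arrays that share each array's own deviation, and with so many genes compared, high values arise without any relation.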
